A study of Homo sapiens with 15 samples.

Results

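The genes described here encode the proteins of the mitochondrial ribosome and carry symbols that begin with MRPL (large subunit) or MRPS (small subunit), followed by digits and at most 1 letter. By this rule 78 of the 21519 genes in the count table were members, and 1556 of the 721551 splicing events carried the same 78 gene names. The rule uses names only and no measured value, although it was chosen with earlier results of these data known. The cells were HEK-293, an established human embryonic kidney line, either untreated (control) or transfected with the plasmid pcDNA3Xpress-Gemin5 by Lipofectamine LTX and harvested 24 h later. No group received an empty plasmid, so GEMIN5 and the transfection itself cannot be told apart. RNA came from cytoplasmic lysates (Input) or from fractions 8 to 12 of 12 of a 10 to 50% sucrose gradient (polysomes, mRNA bound by several ribosomes), after all cells had been held in cycloheximide for 10 min. Poly(A) RNA libraries numbered 4 for Input of control cells, 3 for Input of GEMIN5 cells and 4 for polysomes of each kind of cell. Whether replicates came from separate cultures is not in the labels, and the p-values reflect no more than the variation among these libraries, which may be technical.

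The mitochondrial ribosome makes the membrane proteins of the respiratory chain that mitochondrial DNA still encodes. All of its proteins are encoded in the nucleus, translated on cytosolic ribosomes and imported, and together with mitochondrially encoded ribosomal RNA they form a large and a small subunit. Part of these proteins have a counterpart in bacterial ribosomes, and the rest are specific to mitochondria and replace or cover RNA that the organelle has lost. GEMIN5 is an RNA-binding protein of the complex that assembles small nuclear ribonucleoproteins, and it also binds ribosomes and is known for its effects on translation.

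By family name, 28 members were large subunit proteins with a bacterial counterpart, 23 were large subunit proteins specific to mitochondria, 16 were small subunit proteins with a bacterial counterpart and 10 were small subunit proteins specific to mitochondria. MRPS30 and MRPS18A count among the large subunit proteins, as current nomenclature places them there. MRPS36 is kept as a member by its symbol, although it is now regarded as a part of a metabolic enzyme complex. GEMIN5 itself, checked first, lay at 12.4 to 15.9 CPM in Input control, at 1319 to 1543 in Input GEMIN5, at 4.19 to 7.18 in polysome control and at 647 to 1035 in polysome GEMIN5. CPM are counts relative to each library's total, which was scaled by the trimmed mean of M-values (TMM), a factor that assumes most genes alike between libraries.

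Total counts were 11191417 to 18407933 per library, and the members took 163933 to 261244 of them. TMM factors were 0.971 to 1.03 in Input control, 0.354 to 0.488 in Input GEMIN5 and 1.27 to 1.55 in both polysome groups. The cytosolic ribosomal protein genes took 34.9% ± 0.527 (SD, n = 4) of Input control counts and 58.5% ± 2.62 (n = 3) of Input GEMIN5 counts. All 5 genes listed as marks of HEK-293 cells (PAX2, LHX1, NEFM, NEFL and INA) had counts in the control and polysome libraries, and 4 of 5 in each Input GEMIN5 library. Their summed counts were 1302 to 1473 in Input control and 211 to 315 in Input GEMIN5, where 3 of the 5 were called lower (median log2 fold change -1.53), and their part in the Input results was not tested. A list of 11 liver markers summed to 1312 to 1914 counts in 6 libraries, Input control 3 and 4 and all 4 of polysome control, with all 11 above 0. The other 9 libraries held 11 to 48 such counts, with ALB at 0 in 7 of them. In polysomes these counts move with the group, and in Input they split the controls. A list of 8 blood cell markers summed to 102 to 148 counts in polysome control, with all 8 above 0, and to 19 to 51 in the other libraries. Of its 6 tested genes 5 were called lower in polysome GEMIN5 than in polysome control, and 4 were called higher in polysomes than in Input of control cells. The part of either list in the polysome results was not tested, and Input results without control libraries 3 and 4 are given where they differ in a call.

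A count of 0 in every library was listed for 8 members: MRPL12, MRPL30, MRPL38, MRPL46, MRPL53, MRPS5, MRPS17 and MRPS24. At least 99% of the span of each of these 8 genes is shared with another annotated gene on the same strand. MRPS24, for example, lies wholly inside the read-through gene URGCP-MRPS24, and MRPL53 shares 99.4% of its span with CCDC142. None of the 26 members that overlap a gene on the opposite strand was at 0. MRPS28, which shares 99.9% of its span, held 1 to 11 counts a library. The remaining 70 members passed the filter on low counts, and the gene tests below cover these 70 of 78.

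The splicing table, made from the same libraries, held reads across introns for 7 of the 8 genes at 0. MRPL12, a protein of the flexible stalk of the large subunit, had 5637 to 9954 spliced reads per library. MRPS24, a small subunit protein, had 2153 to 5049, and MRPL53, a large subunit protein specific to mitochondria, had 1140 to 3411. MRPS5, a protein of the small subunit, had 280 to 1272. The 5 introns of MRPL30 are in the splicing table and are listed with 0 spliced reads in every library. These genes are taken up through their spliced reads further on, since their gene counts of 0 stand beside reads across their introns.

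Levels are compared between genes per kilobase of mRNA, as TMM-scaled CPM per kb of the principal annotated transcript. Among members with gene counts, the highest level per kb in Input control was that of MRPS34, at 619 ± 37.7 (SD, n = 4). MRPS34 is a mitochondria-specific small subunit protein. Among mitochondria-specific large subunit proteins MRPL37 followed at 452 ± 23.3 and MRPL51 at 446 ± 38.2, a difference smaller than either SD, with MRPL55 next at 418 ± 19.6. The highest small subunit protein with a bacterial counterpart was MRPS15 at 406 ± 28.9, with MRPS21 at 259 ± 15.0 next in its group. Of the large subunit proteins with a bacterial counterpart and with gene counts, MRPL20 (349 ± 27.2), MRPL33 (348 ± 26.2) and MRPL21 (347 ± 17.8) led. They did not differ beyond their spread. MRPL12 has the same role and is missing from this order. On the CPM scale it had a mean of 452 spliced reads over 4 introns in Input control. MRPL20 had 174 over 3 introns, MRPL33 187 over 3, MRPL21 232 over 6 and MRPS34 177 over 2. MRPS33, the next mitochondria-specific small subunit protein, stood at 292 ± 21.8, and MRPS36 stood at 87.9 ± 5.81.

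In Input, GEMIN5 cells against control cells, 50 of the 70 members rose, 6 fell and 14 did not pass edgeR's quasi-likelihood test at an adjusted p under 0.05. The background was high: of all 12197 genes tested, 51.5% were called, 27.1% as higher and 24.4% as lower. The members' median log2 fold change was 0.96, beside -0.01 over all genes tested. MRPS28 is among the 50, but it rests on 7 or 8 counts a library in Input GEMIN5 and 3 to 8 in Input control. With TMM these became 0.779 to 1.31 CPM in Input GEMIN5, and at most 0.596 in the other groups. The call of MRPS28 is no support for a rise, and without it 49 of 69 members rose and 6 fell (median 0.94). With scaling to library size alone, which moves the median of all genes to -1.29, the split of the members turned to 13 higher and 37 lower with a median of -0.33. With an offset for mRNA length in each library it was 30 higher and 17 lower, with a median of 0.18. Without Input control libraries 3 and 4 it was 46 higher and 6 lower. The counts of rises and falls are thus relative to the scaling, and so are the values of single genes that follow, all with TMM.

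MRPL33, the smallest member by coding sequence and a large subunit protein with a bacterial counterpart (GRCh38 chr2:27771717-27988087, plus strand), had 186, 195, 175 and 164 CPM in Input control and 833, 1057 and 905 in Input GEMIN5. All 3 GEMIN5 libraries lay far above all 4 controls, or 2.37 on the log2 scale (SE 0.17, edgeR adjusted p = 9.204e-09). The count of MRPL33 is uncertain, as 45.4% of its span is shared with BABAM2 on the same strand. Its spliced reads gave a log2 ratio of 2.415 in the same comparison. MRPL57, a small mitochondria-specific protein of the large subunit, had 145, 141, 143 and 132 CPM in control and 492, 838 and 708 in GEMIN5 cells, which is 2.28 on the log2 scale (SE 0.22, edgeR adjusted p = 1.409e-07). MRPL57 has 5 annotated pseudogenes, so its count may hold reads of near-identical copies. MRPL14, which lies where the subunits meet, had 208, 234, 228 and 215 CPM in control and 750, 1315 and 1134 in GEMIN5 cells (log2 fold change 2.27, SE 0.21). The ranges did not overlap for any of these genes, although the GEMIN5 libraries of MRPL14 differed among themselves by more than the size of the control level.

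MRPL52 rose by 2.03 (SE 0.18), MRPL54 by 2.01 (SE 0.17) and MRPS18C by 2.00 (SE 0.16) on the log2 scale. MRPS18C, a small subunit protein with a bacterial counterpart, showed the tightest GEMIN5 group of these, with 469, 507 and 471 CPM against 120, 136, 123 and 106 in control. MRPS27, a mitochondria-specific small subunit protein with the largest fall, had 46.6, 36.3, 35.6 and 41.8 CPM in control and 21.6, 9.01 and 11.4 in GEMIN5 cells. Its log2 ratio was -1.49 (SE 0.28, edgeR adjusted p = 0.0002311). MRPL3, a core protein near the peptidyl transferase centre, had 291, 324, 290 and 269 CPM in control and 194, 158 and 179 in GEMIN5 cells (log2 fold change -0.73, SE 0.12, edgeR adjusted p = 3.277e-05). In both genes every GEMIN5 library lay below every control.

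The other 4 falls were smaller. MRPL49 had 34.5, 38.0, 33.5 and 36.5 CPM in control and 25.6, 25.6 and 25.3 in GEMIN5 cells (log2 ratio -0.48, SE 0.12). MRPS35, MRPS30 and MRPL50 had log2 fold changes of -0.45 (SE 0.12), -0.44 (SE 0.14) and -0.38 (SE 0.13). MRPL50 and MRPS30 lost the call when GEMIN5 library 3 was left out, and MRPL50 also lost it without Input control library 2 or with an offset for mRNA length (log2 fold change -0.11, edgeR adjusted p = 0.588).

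**Figure D1:**
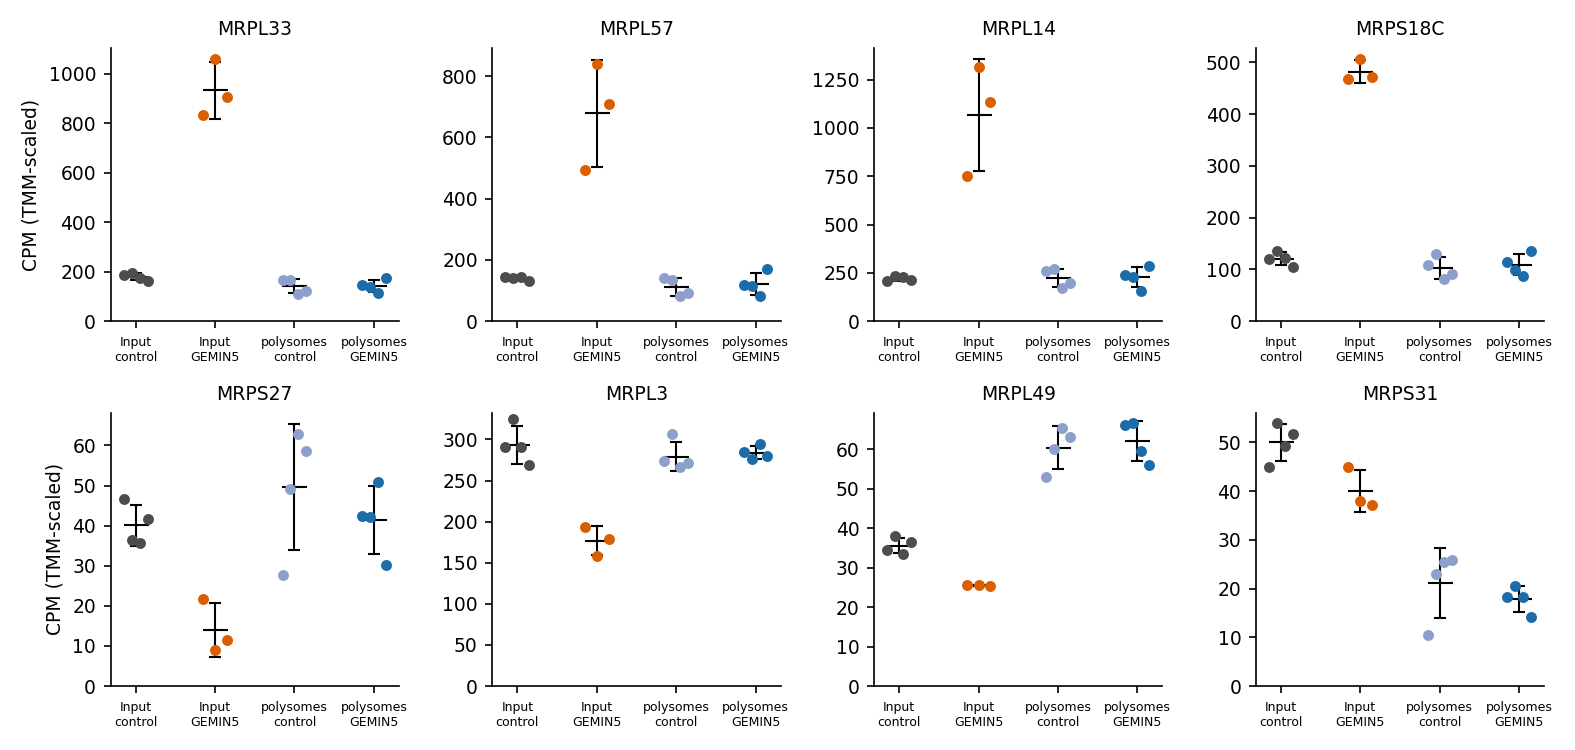
TMM-scaled CPM (vertical axis, from 0) of 8 members in each of the 15 libraries, by group. Points are libraries, and bars are the mean and SD. In the upper row the 3 Input GEMIN5 libraries stand above all other libraries, and in the lower row MRPS27, MRPL3 and MRPL49 are lowest in Input GEMIN5, while MRPS31 is lower in both polysome groups than in Input.

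The role groups moved in the same direction with different medians. Of the 26 tested large subunit proteins with a bacterial counterpart 19 rose and 1 fell, with a median log2 fold change of 0.86. Of the 20 tested mitochondria-specific large subunit proteins 14 rose and 3 fell, with a median of 1.14. Among the 13 tested small subunit proteins with a bacterial counterpart 11 rose and none fell (median 1.42), or 10 of 12 without MRPS28 (median 1.34), the exceptions being MRPS9 (-0.33, SE 0.18) and MRPS10 (0.09, SE 0.14), which did not pass. Of the 10 mitochondria-specific small subunit proteins 5 rose and 2 fell, with a median of 0.48. MRPS36 rose by 1.51 (SE 0.15). The ranges of control and GEMIN5 libraries did not overlap for 60 of 70 members, against 58.9% of all genes.

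In polysomes, none of the 70 members passed the same test between GEMIN5 and control cells, where 0.484% of all genes were called, 0.082% as higher and 0.402% as lower. None had an unadjusted p under 0.05 either, and DESeq2 called none, while 704 of the 12197 genes had an unadjusted p under 0.05. The median log2 fold change was 0.00, with the middle 50% of members between -0.06 and 0.08. No member had group ranges that did not overlap, against 3.35% of all genes. The lowest p belonged to MRPL2 (13.0, 12.8, 13.9 and 10.9 CPM in control, 15.6, 16.7, 12.5 and 17.5 in GEMIN5 cells), at a log2 ratio of 0.30 (SE 0.16, edgeR adjusted p = 0.9335). MRPS28 (0.92, SE 0.54) rests on few counts, 5 to 11 a library in polysome GEMIN5 and 1 to 10 in polysome control. It passed the filter on low counts in 3 of the 8 fits that left out 1 polysome library. None of these 3 left out a polysome GEMIN5 library, so its passing hangs on that group. MRPS9 stood at -0.28 (SE 0.17).

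The genes that moved most in Input show how close the polysome groups were. MRPL33 had 165, 166, 111 and 122 CPM in polysome control and 144, 139, 112 and 174 in polysome GEMIN5. MRPS27 had 27.7, 49.3, 62.9 and 58.7 CPM in polysome control and 42.3, 42.3, 50.8 and 30.1 in polysome GEMIN5, a wide and overlapping spread. MRPL3 had 273, 306, 266 and 271 CPM in polysome control and 285, 276, 294 and 280 in polysome GEMIN5.

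The difference between the GEMIN5 effect in polysomes and that in Input was tested in the same fit. It was called for 52 members (37.4% of all genes), 47 with a lower value in polysomes (20.5% of all genes) and 5 with a higher one (16.9%), and the median difference was -0.96 on the log2 scale. MRPL33 (-2.36, SE 0.23), MRPL14 (-2.24, SE 0.28), MRPL57 (-2.17, SE 0.30), MRPL54 (-2.003, SE 0.24), MRPL52 (-1.99, SE 0.25) and MRPL17 (-1.93, SE 0.23) had the largest negative differences. The 5 positive ones were MRPS27 (1.23, SE 0.37), MRPL3 (0.75, SE 0.16), MRPL49 (0.52, SE 0.15), MRPS30 (0.50, SE 0.19) and MRPS35 (0.45, SE 0.17). The calls of MRPS30 and MRPS35 had edgeR adjusted p-values of 0.04257 and 0.03762 and were lost when single libraries of either fraction were left out, among them Input control 1, Input control 2 and polysome control 1 for both genes, and MRPS30 lost it also without Input control 3 and 4 together. With scaling to library size alone the split was 33 higher and 8 lower, and with an offset for mRNA length it was 12 higher and 26 lower. Without Input GEMIN5 library 2 the median difference was -0.63, with 34 lower and 5 higher.

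**Figure D2:**
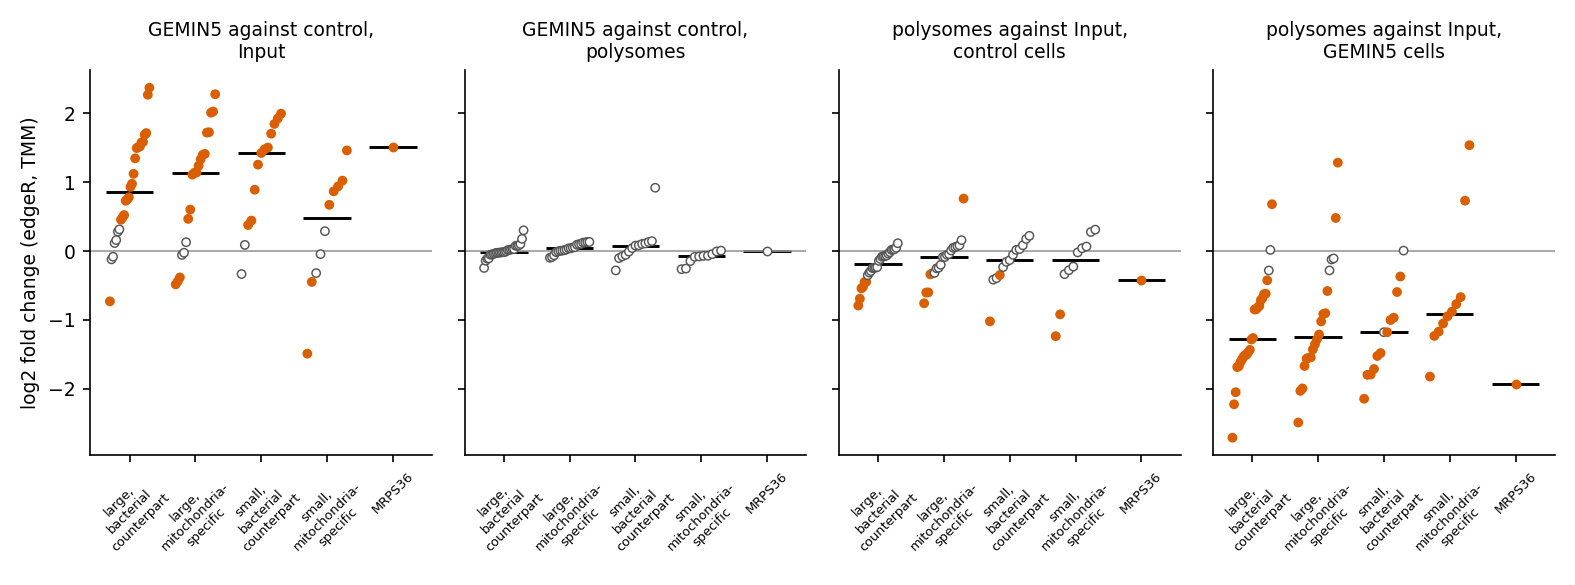
Log2 fold change (vertical axis, edgeR with TMM scaling) of the 70 tested members in 4 comparisons, by subunit and by whether the protein has a bacterial counterpart. Each point is a gene, filled where the adjusted p is under 0.05, and each bar is the group's median. The 50 members called higher in Input stand beside 0 called in polysomes.

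Polysomes against Input asks which mRNAs are enriched on ribosomes. In control cells 1 member was higher and 16 were lower in polysomes (24.1% and 19.1% of all genes, 43.2% in either direction), with a median log2 fold change of -0.14 beside 0.02 over all genes. The median was -0.05 without polysome control library 3 and -0.21 without polysome control library 2. MRPL49, a mitochondria-specific large subunit protein (chr11:65122183-65127371, plus strand), was the member that was higher, with 53.0, 60.1, 65.3 and 63.2 CPM in polysomes against 34.5, 38.0, 33.5 and 36.5 in Input (log2 fold change 0.76, SE 0.10, edgeR adjusted p = 1.084e-05). MRPS31 (chr13:40729128-40771190, minus strand), a mitochondria-specific small subunit protein, was lower by the most. It had 45.04, 53.9, 49.3 and 51.7 CPM in Input and 10.54, 23.0, 25.3 and 25.9 in polysomes (log2 ratio -1.24, SE 0.20, edgeR adjusted p = 6.816e-05). No library of 1 fraction reached the range of the other for either gene.

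MRPS9, at the head of the small subunit (-1.02, SE 0.17), MRPS22 (-0.92, SE 0.12), MRPL22 (-0.79, SE 0.14), MRPL39 (-0.76, SE 0.11) and MRPL2 (-0.69, SE 0.16) followed. MRPS9 had 104, 108, 106 and 110 CPM in Input control and 32.4, 61.3, 54.5 and 62.8 in polysome control. The call of MRPL2 was lost without Input control libraries 3 and 4. Polysome control library 1 was the lowest of its group for MRPS31, MRPS9 and MRPS22. Ranges did not overlap for 16 members, against 43.4% of all genes. Scaling to library size alone gave 42 higher and 3 lower, with a median of 0.37 (0.54 over all genes), and an offset for mRNA length gave 11 higher and 11 lower.

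In GEMIN5 cells 5 members were higher and 58 lower in polysomes than in Input (32.6% and 35.0% of all genes, 67.6% in either direction), with a median of -1.18, and the ranges did not overlap for 65 of 70 members (64.4% of all genes). MRPL33 (-2.71, SE 0.17), MRPL57 (-2.49, SE 0.23) and MRPL14 (-2.22, SE 0.21) were lower by the most, followed by MRPS18C (-2.14), MRPL17 (-2.05) and MRPL52 (-2.03). The 5 that were higher were MRPS27 (1.54, SE 0.28), MRPL49 (1.28, SE 0.12), MRPS35 (0.73, SE 0.12), MRPL3 (0.68, SE 0.12) and MRPL50 (0.48, SE 0.13). This comparison shares the Input GEMIN5 libraries with the comparison in Input, so the values are set side by side and are not independent of it. With library size alone the split was 48 higher and 4 lower, and with an offset for mRNA length it was 14 higher and 33 lower.

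Member mRNAs are short. The median principal transcript had 1274 nt and the median coding sequence 585 nt (195 to 1317 nt), against 2924 nt and 1404 nt over all genes tested. The relation to length was looked at after the fold changes were known, and genes are not independent replicates. In Input the log2 fold change of the 70 members fell with coding length (Pearson's r = -0.75 with log2 length, Spearman's rho = -0.75), and over the 12121 genes tested with a coding length r was -0.21. The points share libraries, depth and 1 scaling factor a library, and r was -0.75 also with scaling to library size alone. With an offset for mRNA length it was -0.53. The relation to the length of the whole mRNA was weaker (r = -0.37) and had no steady order among members. Above 2000 nt 8 of 12 members rose with a median of 0.77, where 18.2% of all genes of that length were called higher. Between 1500 and 2000 nt 7 of 13 members rose with a median of 0.38, where 30.2% of all genes were called higher.

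All 21 members with a coding sequence of at most 450 nt rose, with a median log2 fold change of 1.59. Of all 851 genes of that length, 72.3% were called higher and the median was 1.33. Of 15 members between 450 and 600 nt 12 rose, MRPS28 among them, and 2 fell, where 56.2% of all genes of that length were called higher and 17.3% lower. Of 20 members between 600 and 900 nt 14 rose and none fell, where 39.8% of all genes were called higher and 23.4% lower. Of the 14 members above 900 nt 3 rose and 4 fell (21.4% and 28.6%), near the 18.03% and 26.77% of all 8925 genes of that length, with a median of -0.09 beside -0.14. MRPL33 (195 nt of coding sequence) and MRPS27 (1242 nt) stand near the ends of this range.

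Polysomes showed no such gradient between GEMIN5 and control cells (r = -0.10 over 70 members). In control cells the log2 ratio of polysomes to Input fell with coding length among members (r = -0.37), where over all genes r was 0.06. Above 900 nt 8 of 14 members were lower in polysomes (20.04% of all genes of that length), and at most 450 nt 1 of 21 was (15.4% of all genes). In GEMIN5 cells the same ratio rose with coding length (r = 0.60 over members, 0.17 over all genes), a comparison that shares its Input libraries with the one in Input. With the mRNA length offset, the members' r was -0.36 in control cells and 0.34 in GEMIN5 cells.

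**Figure D3:**
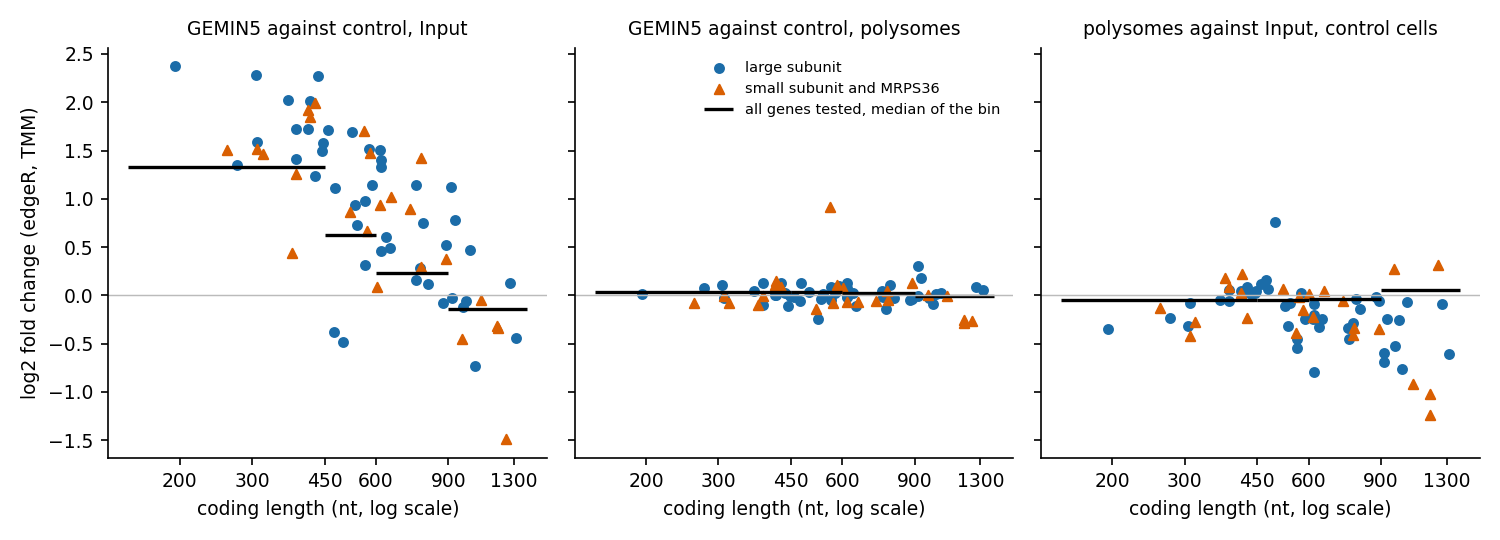
Log2 fold change (vertical axis, edgeR with TMM scaling) against coding length in nt (horizontal log axis) for the 70 tested members in 3 comparisons. Circles are large subunit proteins, triangles are small subunit proteins and MRPS36, and black lines are the medians of all genes tested in the bins up to 450, 600 and 900 nt and above 900 nt (the first and the last drawn only over the range shown). The members fall from left to right in Input (r = -0.75) and lie near 0 in polysomes.

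Reads across introns gave a second view of the same libraries. For the 69 tested members with spliced reads in every group, the log2 ratio of TMM-scaled spliced reads tracked the gene-level log2 fold change in Input (r = 0.99 across genes), with a median of 0.83 beside 0.94. For the genes at 0 in the count table it gives values that the count table does not. On the CPM scale MRPL12 had 433 to 482 spliced reads in Input control and 1008 to 1465 in Input GEMIN5, a log2 ratio of the means of 1.503. MRPL53 had 87.9 to 103 and 350 to 559 (log2 ratio 2.29), and MRPS24 had 185 to 222 and 474 to 827 (1.74).

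MRPS17, a small subunit protein with a bacterial counterpart, had 42.7 to 58.1 spliced reads on that scale in Input control and 118 to 165 in Input GEMIN5 (1.54). MRPL46 had 59.4 to 67.2 and 86.5 to 136 (0.77), and MRPL38 had 128 to 150 and 137 to 215 (0.42), where the groups overlapped. MRPS5, with the longest coding sequence of the 8 (1290 nt), went the other way, with 71.0 to 72.9 in control and 41.9 to 49.3 in GEMIN5 cells (-0.68). Between polysome control and polysome GEMIN5 the ranges of all 7 genes overlapped, with log2 ratios from -0.25 (MRPS5) to 0.22 (MRPS24). MRPS28, with 1 to 11 gene counts, had 484 to 850 spliced reads per library. On the CPM scale these were 40.9 to 48.7 in Input control and 77.1 to 98.7 in Input GEMIN5 (0.98). Its polysome groups overlapped (-0.05).

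As a share of all counts, the members took 1.29% ± 0.0507 (SD, n = 4) in Input control and 1.18% ± 0.0592 (n = 3) in Input GEMIN5 (exact permutation test, two-sided p = 0.1143, adjusted over 32 tests 0.1662). The 8 members at 0 in the count table add nothing to any share of the members given here or below. In polysomes the shares were 1.67% ± 0.125 in control and 1.67% ± 0.154 in GEMIN5 cells (n = 4 each, exact permutation p = 0.9714). The polysome share exceeded the Input share in every library of either cell group, with an exact permutation p of 0.02857 in control and 0.05714 in GEMIN5 cells, the smallest these group sizes allow, and an adjusted p of 0.09624 for both. The large subunit took 0.866% of Input control and 0.797% of Input GEMIN5 counts, and the small subunit took 0.408% and 0.365%, without overlap between the groups for the small subunit (exact permutation p = 0.05714, adjusted 0.09624).

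When the cytosolic ribosomal protein and mitochondrially encoded genes were left out of the total, the members' share was 2.11% ± 0.0692 in Input control and 2.96% ± 0.0766 in Input GEMIN5. No Input GEMIN5 library reached down to the control range (exact permutation p = 0.05714, the smallest possible, adjusted 0.09624). In polysomes it was 2.19% ± 0.241 and 2.21% ± 0.267. The direction of the Input difference thus turns with the total it is taken from.

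**Figure D4:**
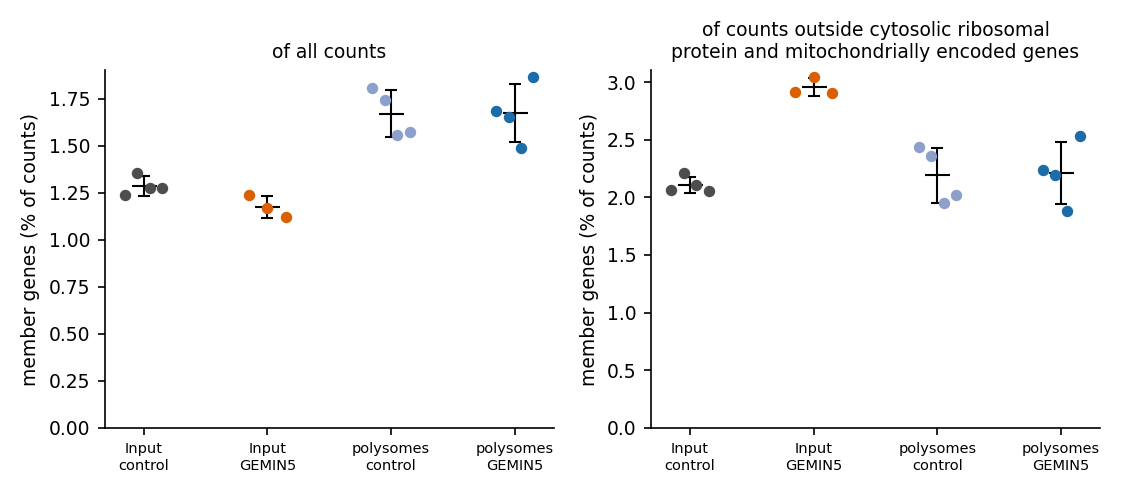
Share of counts in the member genes (percent, vertical axis from 0) in each of the 15 libraries, of all counts (left) and of counts outside cytosolic ribosomal protein and mitochondrially encoded genes (right). Points are libraries, and bars are the mean and SD. Input GEMIN5 is at 1.12 to 1.24% on the left, overlapping with control, and at 2.91 to 3.05% on the right, above all Input controls.

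A measure of RNA integrity moved with the Input groups. The log2 ratio of reads at the last to the first annotated intron, as a median over 69 members, was 0.50 to 0.64 in Input control and 0.74 to 1.00 in Input GEMIN5, and 0.46 to 0.69 in the polysome libraries. Over 2887 other genes the median was 0.42 to 0.54 in Input control and 0.85 to 0.96 in Input GEMIN5. Its part in the results was not tested.

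Of the 5 mitoribosome proteins with other symbols, 3 rose in Input and none fell: CHCHD1 (1.80, SE 0.16), GADD45GIP1 (1.32, SE 0.18) and AURKAIP1 (1.29, SE 0.19). Of 24 tested assembly and rRNA modification factors 9 rose, led by MALSU1 (1.72, SE 0.17), which binds the large subunit during assembly, and MTERF4 (1.56, SE 0.13), and 2 fell, RPUSD4 (-0.97, SE 0.13) and RCC1L (-0.46, SE 0.12). Of 15 translation factors and mRNA stabilisers 3 rose, with SLIRP, a partner of LRPPRC, at 2.36 (SE 0.18), and 5 fell, among them the elongation factor GFM1 (-0.95, SE 0.21) and the initiation factor MTIF2 (-0.70, SE 0.13). The aminoacyl-tRNA synthetases of mitochondria went mostly the other way, with 3 of 17 higher and 8 lower, led by HARS2 (-1.45, SE 0.22) and EARS2 (-1.41, SE 0.23). Of all genes tested, 27.1% were called higher and 24.4% lower. The shares were 37.5% and 8.33% for the assembly factors, 20% and 33.3% for the translation factors and 17.6% and 47.1% for the synthetases. Those of the translation factors lay near the shares of all genes.

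Most cytosolic ribosomal protein and respiratory chain mRNAs were called higher as well. Of 80 tested cytosolic ribosomal proteins 77 rose and 1 fell (median 2.10), and of 64 nuclear-encoded respiratory chain subunits 54 rose and 4 fell (median 1.63). The mitochondrially encoded mRNAs, the templates of the mitochondrial ribosome, were split, with 3 of 13 higher and 2 lower. These are 23.1% and 15.4%, near the 27.1% and 24.4% of all genes. None of these lists had a member called between the polysome groups, where 0.484% of all genes were called. There 8 of the 13 mitochondrially encoded mRNAs had an unadjusted p under 0.05.

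Among splicing events, the clearest member was MRPL2, a core protein of the large subunit next to its catalytic centre. Exons 3 to 6 of its principal transcript (GRCh38 chromosome 6, minus strand) were each skipped more often in Input GEMIN5. Their sequences, from the GENCODE 29 transcript, are shown because all 4 lie in the coding sequence and are left out together by the junction that the splicing table counts against them. Exon 3 is chr6:43056307-43056445, exon 4 is chr6:43056081-43056196, exon 5 is chr6:43055897-43056007 and exon 6 is chr6:43055545-43055618. The event measured for exon 4 is shorter, chr6:43056085-43056196 (112 nt), where the transcript's exon printed here has 116 nt.
MRPL2 exon 3: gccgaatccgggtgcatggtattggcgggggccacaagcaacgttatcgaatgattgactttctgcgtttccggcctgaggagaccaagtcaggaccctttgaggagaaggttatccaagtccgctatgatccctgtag
MRPL2 exon 4: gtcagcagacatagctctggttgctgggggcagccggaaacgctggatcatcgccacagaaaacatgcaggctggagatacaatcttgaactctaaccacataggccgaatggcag
MRPL2 exon 5: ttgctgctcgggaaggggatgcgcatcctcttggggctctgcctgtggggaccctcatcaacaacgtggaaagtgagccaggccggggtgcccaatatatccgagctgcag
MRPL2 exon 6: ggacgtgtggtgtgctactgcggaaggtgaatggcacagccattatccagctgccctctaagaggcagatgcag

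Such a junction would join exon 2, which ends its genomic span at 43058065, to exon 7, which begins at 43054486 on the minus strand. Exons 3 to 6 hold 440 bases, which is 2 more than a multiple of 3. Without them the reading frame is shifted after exon 2, and the first stop codon in that frame begins at base 45 of exon 7. It follows 103 codons, where the full coding sequence has 305. In the joined sequence, the first 30 bases are the end of exon 2, the rest is exon 7, and the capitals mark that stop codon.
MRPL2 exon 2 joined to exon 7: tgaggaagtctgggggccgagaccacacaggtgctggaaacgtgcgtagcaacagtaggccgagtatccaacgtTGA

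Inclusion is given as percent spliced in (PSI), the share of reads that hold the exon. Exon 3 had a PSI of 67.6, 68.1, 71.0 and 72.1% in Input control and 37.0, 33.7 and 35.5% in Input GEMIN5. The groups were 30.6 points apart at their nearest, with a difference of means of -34.3 points (log2 odds -2.07, SE 0.26, limma adjusted p = 0.004409). Exon 4 differed by -33.3 points (limma adjusted p = 0.005621), exon 5 by -29.8 (0.01024) and exon 6 by -22.6 (0.03179). The call of exon 6 was lost whichever single library was left out, and those of exons 3 to 5 were not. The 4 exons are neighbours in 1 gene and may share skipping reads, so they are not taken as separate observations. Corrected reads that skip exon 3 were 154 to 251 per library in Input control and 336 to 350 in Input GEMIN5. Reads that include exon 3 averaged 444 and 188. For exons 3 to 6 the skipping reads averaged 342, 344, 362 and 307 in Input GEMIN5. In Input control they averaged 193.5, 192.6, 216 and 187.

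In polysomes exon 3 had a PSI of 47.2, 59.8, 63.7 and 66.6% in control and 57.2, 66.9, 68.6 and 54.4% in GEMIN5 cells. These groups overlapped and differed by 2.46 points (limma adjusted p = 0.9768). Polysome control library 1 was the lowest for all 4 exons. Within GEMIN5 cells exon 3 was 26.4 points higher in polysomes than in Input (limma adjusted p = 0.03273), and exon 4 was 24.4 points higher (0.03943). Both calls were lost when any single library of the comparison except polysome GEMIN5 library 4 was left out. In control cells exon 3 was 10.4 points lower in polysomes than in Input, which did not pass (limma adjusted p = 0.6443). The gene count of MRPL2 rose in Input by 1.12 (SE 0.17) on the log2 scale. Its count is uncertain, as 76.8% of its span is shared with another gene on the same strand.

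**Figure D5:**
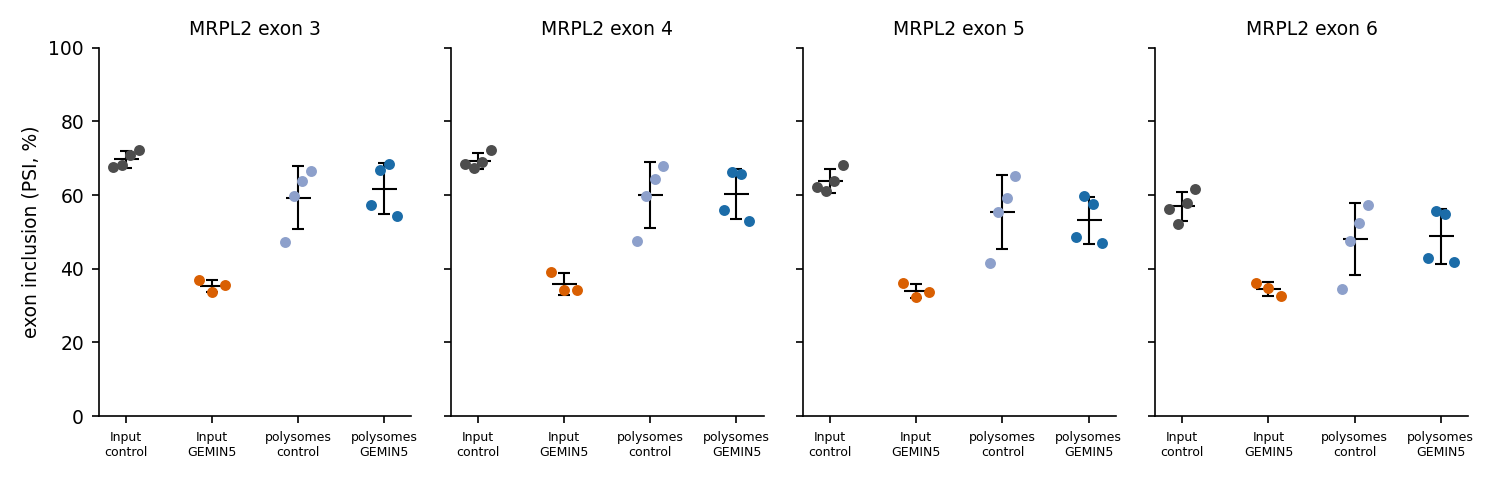
Percent spliced in (PSI, vertical axis from 0 to 100%) of MRPL2 exons 3 to 6 in each of the 15 libraries, by group. Points are libraries, and bars are the mean and SD. The 3 Input GEMIN5 libraries lie between 32.3 and 39.2% for all 4 exons, below every Input control, while the polysome groups overlap.

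Over all member events in Input, 138 events of 47 genes had at least 10 corrected reads in every library compared. Of these 6 were called by limma (4.29% of all events) and 4 passed a rule of size, a difference of at least 15 points with at least 5 points between the groups (3.32% of all events). The other 2 calls were the complementary forms of a choice of acceptor sites in MRPS30, which differed by 3.63 points with overlapping groups. At least 1 of these calls was lost whichever library was left out. MRPL22 exon 3 (chr5:154950821-154950938), named after its values were seen, missed both rules narrowly, with 91.9% ± 3.02 in control and 77.8% ± 2.84 in GEMIN5 cells (limma adjusted p = 0.05307). The intron event with the largest difference, in MRPS18A, went from 69.8% ± 6.51 to 42.4% ± 27.6 and rested on 15 to 38 reads, with overlapping groups.

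Between the polysome groups 0 of 118 member events were called by limma (0.0% of all events), 0 passed the size rule (0.0972%), and 3 had an unadjusted p under 0.05. The lowest p was that of a donor site of MRPL1, at 11.4, 9.73, 7.29 and 7.15% in control and 3.38, 0, 1.97 and 0% in GEMIN5 cells (limma adjusted p = 0.7823). Between polysomes and Input of control cells 0 of 113 were called (0.0186% of all events), 0 passed the size rule (0.366%), and 10 had an unadjusted p under 0.05. There the lowest p was that of a donor site of MRPL18, with 1 of its forms at 16.8 to 21.9% in Input and 8.72 to 11.5% in polysomes (limma adjusted p = 0.3237). These counts of 0 do not show that splicing was alike. In data simulated with a set spread for GEMIN5 against control, the event test recovered no shift of the size that the size rule asks for. Polysomes against Input were not simulated.

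Between polysomes and Input of GEMIN5 cells 7 of 145 member events were called (5.0% of all events) and 3, all in MRPL2, passed the size rule (3.71%). Intron retention in MRPS24 (chr7:43869377-43869456, 80 nt) was 19.1, 21.3 and 19.2% in Input GEMIN5 and 6.97, 8.55, 6.70 and 9.02% in polysome GEMIN5, 12.0 points lower in polysomes (limma adjusted p = 0.03163). The same intron stood at 15.1 to 15.8% in Input control and at 9.40, 7.75, 8.21 and 7% in polysome control, where the difference of -7.40 points did not pass (0.3603). Exon 6 of MRPS35 (chr12:27735447-27735556) was included at 85.6% ± 3.82 in Input and 96.3% ± 1.23 in polysomes. The other 3 calls, exon 3 of MRPL19, exon 5 of MRPL38 and an acceptor site of MRPL38, differed by 3.47, 5.45 and -4.17 points. Each call of this comparison outside MRPL2 was lost when any of several single libraries was left out, Input GEMIN5 1, 2 and 3 among them.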

How the data were processed

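Raw read counts per gene and, for splicing, PSI as a percent per event and library are the values the authors deposited. The submitters' processing notes name STAR 2.7.10a, featureCounts and GRCh38, but no counting options or featureCounts version. The deposited quality field of the splicing table, a text of another unit (other), holds corrected inclusion and exclusion reads. Genes (12197 of 21519) were tested in 1 fit over 15 libraries with edgeR 4.0.16 (filterByExpr, TMM, quasi-likelihood, Benjamini-Hochberg), and events with limma 3.58.1 (trend, robust) on log2 odds with 0.5 reads added. Members and gene lists were chosen with earlier results of these data known. Coding-length bins, spliced reads of genes at 0 and intron read ratios were added after the values were seen. Named were, in each comparison, up to 6 called rises and 6 falls with at least 5 CPM, the 3 lowest p where fewer than 3 were called, 2 members per role by level, and called events. Scripts were tested on data simulated for GEMIN5 against control, where the event test recovered none of the shifts as large as the size rule asks for and part of larger ones. Alternatives covered scaling, filter, tool, mRNA length, replicate block, read minimum and left-out libraries. Transcripts and symbols came from GENCODE 29.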

Additional observations from a re-analysis of the deposited data

Results flagged for a closer look

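Of 120 sets of member values in a group of 4 libraries, 7 held 1 library far from the others, where chance gives about 1 in 20. MRPS22 stood at 42.5 CPM in polysome control library 1, against 59.3 to 62.6 in the other libraries of its group. MRPS30 stood at 33.9 CPM in the same library, against 41.5 to 42.8. MRPS36 stood at 101.8 CPM in Input control library 4, against 116.0 to 117.4. Exon 3 of MRPL22 had a PSI of 87.4% in Input control library 1, against 93.1 to 93.8%. Exon 3 of MRPL19 was at 99.01% in Input control library 3, at 99.02% in polysome control library 1 and at 99.23% in polysome GEMIN5 library 2, where the other libraries of each group were at 100%.

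The effect of GEMIN5 cells against control differed between polysomes and Input, by edgeR's test of that difference, for 47 members with a lower and 5 with a higher value in polysomes. On the log2 scale it was -2.36 for MRPL33, -2.24 for MRPL14, -2.17 for MRPL57, -2.003 for MRPL54, -1.99 for MRPL52 and -1.93 for MRPL17. It was 1.23 for MRPS27, 0.75 for MRPL3, 0.52 for MRPL49, 0.50 for MRPS30 and 0.45 for MRPS35.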

How the results depend on the processing

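With scaling to library size alone, higher and lower members numbered 13 and 37 in Input (median -0.33), 33 and 8 for the difference (0.34), 42 and 3 for polysomes against Input in control cells (0.37) and 48 and 4 in GEMIN5 cells (0.62). An offset for mRNA length gave 30 and 17, 12 and 26, 11 and 11, and 14 and 33. The same offset with a replicate block gave 29 and 14, 11 and 26, 10 and 9, and 15 and 32. The replicate numbers did not pair the samples, with same-number correlations of -0.56 to 0.49, and the block alone gave 50 and 6, 4 and 46, 1 and 16, and 5 and 58, with 0 members in polysomes. Under the block 0 member events were called in Input and 1 between polysomes and Input of GEMIN5 cells, where a minimum of 20 reads gave 11 and a test on PSI points 3. The members' share outside cytosolic ribosomal protein and mitochondrially encoded genes differed by 0.846 points in Input, 0.0803 between polysomes and Input in control cells (exact permutation p = 0.5429) and -0.746 in GEMIN5 cells. With single libraries left out, events called numbered 3 to 6 in Input and 0 to 6 for polysomes against Input in GEMIN5 cells (3 to 7 by size), members higher numbered 3 to 6 for the difference and 1 to 3 for polysomes against Input in control cells, and the share difference was -0.0596 to 0.0657 points between polysome groups and 0.338 to 0.421 between polysomes and Input in control cells, where smaller groups cannot reach 0.05. The cause of these shifts was not tested. Low gene counts limit MRPS28, which had 484 to 850 spliced reads per library, and few reads limit some events.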
